A study of Drosophila melanogaster and Drosophila melanogaster x Drosophila simulans and Drosophila simulans with 6 samples.

Results

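The 9 genes described here encode proteins of ecdysone synthesis: GstE14, nvd, sro, spo, spok, phm, dib, sad and shd. They were taken by identifier from the deposited table, which held 13973 D. melanogaster genes among 28229 genes of both species, and all 9 were present. Polyadenylated RNA from ovaries of 3 kinds of females was sequenced in 2 biological replicates each. The hybrid group was the F1 daughters of D. melanogaster Hmr2 females and D. simulans w501 males. The maternal line was D. melanogaster Hmr2, which carries the Hmr[2] allele of a hybrid incompatibility gene, a rearranged X chromosome and a yellow allele. The paternal line was D. simulans w501. Every hybrid thus carried the Hmr[2] chromosome of its mother, and the comparison contains no hybrid without it. Hybrid ovaries had been selected in the study for having at least several ovarioles with egg chambers, and more poorly developed ones were left out. The methods give 3 to 6 days after eclosion for dissected females, with no separate age for these libraries.

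Ecdysone is the steroid hormone that drives moulting and metamorphosis in insects, and in adult Drosophila females it is made in the ovary, largely by the somatic follicle cells around growing egg chambers. Synthesis starts from dietary cholesterol, passes through intermediates that are still poorly known (the so-called black box) and ends with a series of hydroxylations. The hormone made in the ovary acts on germline stem cells, egg chamber progression and yolk uptake.

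D. melanogaster alleles of 8 of the 9 synthesis genes were lower in hybrid than in D. melanogaster Hmr2 ovaries, and none was called higher. A gene was called at an adjusted p below 0.05 and a log2 fold change of at least 1 in either direction (edgeR, adjusted over all tested genes). Of all 8202 D. melanogaster genes tested, 10.3% were called lower. None of the 8 lower members held 10 counts in both hybrid libraries. They passed the filter on low counts through the D. melanogaster libraries, and such genes can hardly be called higher. Without that filter, 8 members were called lower and 0 higher. The median log2 fold change of the 9 members was -3.40, and that of all tested genes was 0.00. spok was the exception, and both hybrid libraries lay above both D. melanogaster libraries for this gene. The groups did not overlap for any of the 9 members, which also held for 73.7% of all tested genes, and hybrids were the lower group in 8 of 9 members and in 37.2% of all tested genes. In whole ovaries, fewer cells of a type and less RNA per cell cannot be told apart. The genes sad, dib, sro and GstE14 were named in the study from these same libraries, so their lower level is not independent evidence.

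**Figure D1:**
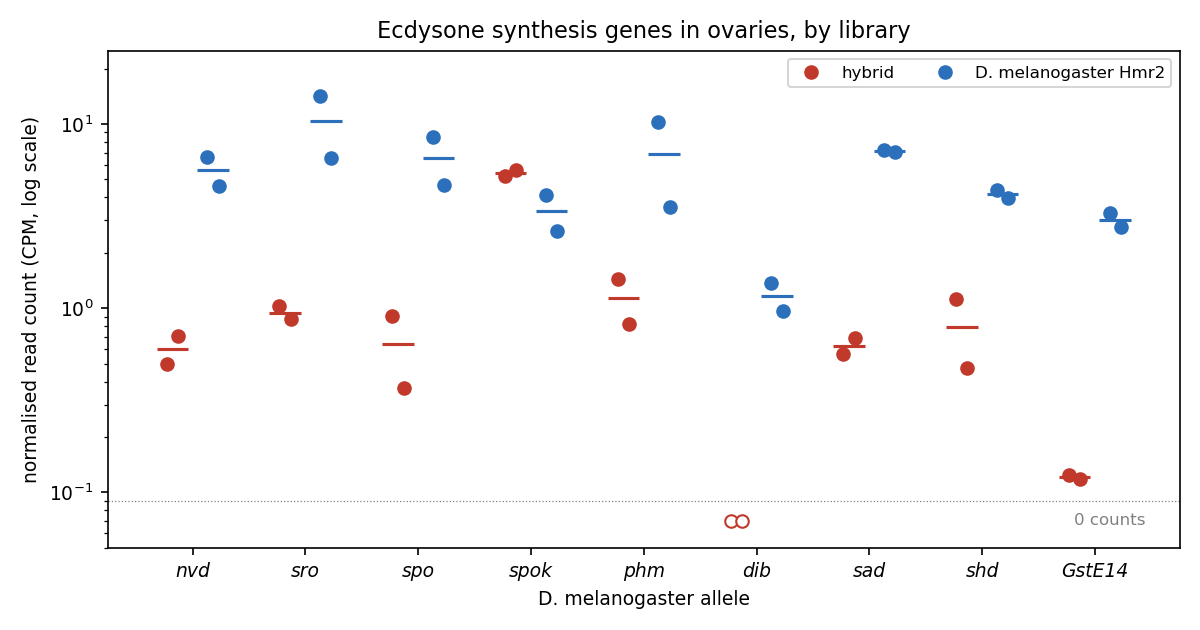
Normalised read counts (CPM within the D. melanogaster genes, log scale) of the D. melanogaster alleles in each hybrid library (red, left) and each D. melanogaster Hmr2 library (blue, right), with the group mean as a bar. Both hybrid libraries lie below both D. melanogaster libraries for every gene except spok, and dib, drawn as open circles below the dotted line, had 0 counts in both hybrid libraries.

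GstE14 and nvd act at the entry of the pathway. GstE14 is a glutathione S-transferase needed for the use of cholesterol in ecdysone synthesis, and nvd encodes the oxygenase that converts cholesterol in the first step. GstE14 (Dmel_CG4688, chromosome 2R, 13239729 to 13241013) had 1 and 1 estimated counts in hybrid replicates 1 and 2, against 56.9 and 36 in D. melanogaster replicates 1 and 2. It was thus close to the limit of detection in hybrids and well above it in D. melanogaster. Scaled to the sizes of the libraries, its counts were 25.4-fold lower in hybrids (exact 95% counting interval 6.83 to 213), with an adjusted p of 0.00366 (edgeR). nvd (Dmel_CG40050, chromosome 3L, 24324866 to 24401655) had 4 and 6 counts in hybrids, against 115 and 60 in D. melanogaster. Its normalised read count was 0.602 ± 0.149 CPM in hybrids and 5.63 ± 1.44 CPM in D. melanogaster (SD, n = 2 each), which is 9.21-fold lower (log2 fold change -3.20, SE 0.47, adjusted p = 0.00527, edgeR). In D. simulans libraries, where no read should fall on a D. melanogaster allele, nvd received 1 and 3 counts and GstE14 received 0 and 0.

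The black box holds the short-chain dehydrogenase sro and the paralogous cytochrome P450 genes spo and spok. In wild-type flies spo is the paralogue known for embryonic and ovarian expression, and spok for expression in the larval prothoracic gland. sro (Dmel_CG12068, chromosome 3R, 29794597 to 29795805) had 8.25 and 7.38 counts in hybrids, against 246 and 85.4 in D. melanogaster. All hybrid values were far below the parental ones, although the parental libraries themselves differed 2.17-fold after scaling. The mean was 0.946 ± 0.109 CPM in hybrids and 10.4 ± 5.41 CPM in D. melanogaster (SD, n = 2 each), a log2 fold change of -3.51 (SE 0.52, adjusted p = 0.00544, edgeR). Without D. melanogaster replicate 1 the log2 fold change of sro was -2.83 and the call remained. For spo (Dmel_CG10594, chromosome 3L, 5590083 to 5592571) 7.32 and 3.13 counts were found in hybrids, against 147 and 60.9 in D. melanogaster. The groups were again well apart, at 0.639 ± 0.382 CPM in hybrids and 6.57 ± 2.68 CPM in D. melanogaster (SD, n = 2 each). Its log2 fold change was -3.43 (SE 0.56, adjusted p = 0.00775, edgeR) and ranged between -4.19 without hybrid replicate 1 and -2.92 without hybrid replicate 2.

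The paralogue spok went the other way. The gene (Dmel_CG41624, chromosome 3R, 3322810 to 3354486) had 42 and 48 counts in hybrids, against 71 and 34 in D. melanogaster and 0 and 4 in D. simulans. Relative to the other D. melanogaster genes this was 5.43 ± 0.312 CPM in hybrids and 3.36 ± 1.05 CPM in D. melanogaster (SD, n = 2 each). Hybrid libraries were therefore the higher ones without overlap, but the log2 fold change of 0.68 (SE 0.36, adjusted p = 0.195, edgeR) did not pass the test. The sign of this change depended on the scaling, but its place above the median of all D. melanogaster genes did not. When libraries were scaled by the reads of both species together, the log2 fold change of spok was -0.22 (adjusted p = 0.556, edgeR), while the median of all D. melanogaster genes moved to -0.92. D. melanogaster genes took 45.1% and 47.7% of the reads in hybrid libraries, against 97.0% and 97.3% in D. melanogaster libraries. With limma on log2(TPM + 0.5) spok was called higher, at 1.05 (adjusted p = 0.0423), where the median of all genes was 0.46. For that fit TPM values were first rescaled to the same sum over the D. melanogaster genes of each library. The ratio of spok to spo counts was 5.74 and 15.3 in hybrid libraries, against 0.484 and 0.559 in D. melanogaster libraries. Within each library this ratio needs no scaling, and spok exceeded spo in both hybrid libraries and in neither D. melanogaster library. It compares D. melanogaster alleles only. Over both alleles spo had 41.3 and 41.1 counts in hybrids, against 42 and 48 on the D. melanogaster allele of spok. The D. simulans allele of spok was not analysed. Counts of spok were whole numbers in every library, whereas some of those of spo were not.

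The final hydroxylations are carried out by the cytochrome P450 enzymes encoded by phm, dib and sad, of which that of phm resides in the endoplasmic reticulum and those of dib and sad in mitochondria. phm (Dmel_CG6578, listed as phtm in RefSeq, chromosome X, 18685766 to 18688433) had 11.7 and 7 counts in hybrids, against 178 and 46 in D. melanogaster. Of all members it differed most between the D. melanogaster replicates, by 2.91-fold after scaling. The mean was 1.14 ± 0.441 CPM in hybrids and 6.91 ± 4.77 CPM in D. melanogaster (SD, n = 2 each), with a log2 fold change of -2.59 (SE 0.63, adjusted p = 0.0273, edgeR). Without D. melanogaster replicate 1 it was -1.61 (adjusted p = 0.0389), without D. melanogaster replicate 2 it was -3.18, and in a test against a 1.5-fold change the gene was no longer called (adjusted p = 0.0616).

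No read of hybrid ovaries was assigned to the D. melanogaster allele of dib (Dmel_CG12028, chromosome 3L, 4062292 to 4064551), the only member that was not detected in a group. It had 0 and 0 counts in hybrids, against 23.6 and 12.6 in D. melanogaster. A count of 0 allows up to 3 counts, or 0.372 and 0.353 CPM in the hybrid libraries, so that dib was at least 3.21-fold lower than its mean of 1.17 ± 0.280 CPM in D. melanogaster (SD, n = 2), with an adjusted p of 0.0127 (edgeR). If 3 counts are allowed over both hybrid libraries together, the bound becomes 6.43-fold. For sad (Dmel_CG14728, chromosome 3R, 11877235 to 11879754) the counts were 4.52 and 5.84 in hybrids, against 125 and 91.4 in D. melanogaster. Its D. melanogaster replicates were the closest of all members, with a mean of 0.624 ± 0.0896 CPM in hybrids and 7.12 ± 0.133 CPM in D. melanogaster (SD, n = 2 each), and the lowest adjusted p of the members, 0.00241 at a log2 fold change of -3.40 (SE 0.40, edgeR). In D. simulans libraries phm, dib and sad each received 0 and 0 counts on these alleles.

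shd encodes the cytochrome P450 that turns ecdysone into its active form, mainly in the tissues that receive the hormone. It lies on chromosome 3L (Dmel_CG13478, 14614458 to 14622205) and had 9 and 4 counts in hybrids, against 75.6 and 51.9 in D. melanogaster. D. simulans libraries had 5.33 and 4.15 counts on the same D. melanogaster allele, which were 13.01% and 5.39% of their reads of shd. The hybrid counts lay near these counts, but hybrids held only 4 and 6 counts on the D. simulans allele. The counts of these libraries are therefore not a like measure of wrong assignment. The mean was 0.794 ± 0.457 CPM in hybrids and 4.18 ± 0.269 CPM in D. melanogaster (SD, n = 2 each), and the log2 fold change of -2.40 (SE 0.48, adjusted p = 0.0155, edgeR) was the smallest fitted change of the 8 called members. Without hybrid replicate 2 the fold change was -1.90 and the call was lost (adjusted p = 0.0869, edgeR); without hybrid replicate 1 it was -3.13.

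Exons of 4 members overlap a coding gene on the opposite strand, over 9.45% of the exonic bases in sro (with Rnb), 12.4% in spo (with l(3)psg2), 20.25% in dib (with wit) and 2.99% in sad (with CG6962). The library kit retains strand, but no strand option is stated for the assignment of reads, so reads of these stretches cannot be told apart from those of the neighbouring gene. The other 5 members have no such overlap with a coding gene. The effect of the overlaps on the counts was not tested.

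The mean levels of all 9 genes lay below the median of the genes detected in D. melanogaster ovaries. On the TPM scale, which corrects for transcript length, they lay between the percentiles 32.6 (dib) and 48.1 (sro) of the 12025 D. melanogaster genes above 0 TPM in this line, the median of which was 9.66 TPM. Levels in D. melanogaster were highest for sro at 8.06 ± 4.39 TPM and lowest for dib at 0.507 ± 0.136 TPM (SD, n = 2). Between these, sad (3.46 ± 0.16), phm (2.88 ± 2.07), nvd (2.83 ± 0.80), GstE14 (2.71 ± 0.407), spo (2.27 ± 1.00), spok (1.64 ± 0.560) and shd (1.44 ± 0.125 TPM) formed a series in which no neighbours differed beyond the range of their libraries. In hybrids the order was different. spok came first at 1.90 ± 0.103 TPM, followed by sro at 0.524 ± 0.0621 TPM, with phm, shd, sad, nvd and spo overlapping with their neighbours between 0.337 and 0.179 TPM, and GstE14 at 0.0777 ± 0.00313 TPM above dib at 0. Over the D. melanogaster alleles of the 9 genes, spok made up 47.7% and 55.9% of the summed TPM in hybrid libraries. It made up 6.25% and 6.58% in D. melanogaster libraries. Its own TPM values, 1.83 and 1.97 in hybrids against 2.04 and 1.25 in D. melanogaster, overlapped between the groups on this scale, which covers the transcripts of both species.

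Hybrids also carry a D. simulans allele of each gene. D. simulans alleles of sro, spo, dib, sad and shd could be identified through the orthologue table of the study, of which 1997 pairs were used here, and those of nvd, spok, phm and GstE14 were not analysed here. All 5 were called lower in hybrid than in D. simulans w501 ovaries, against 9.75% of the 8207 D. simulans genes tested, and in all 5 both hybrid libraries lay below both D. simulans libraries, against 38% of those genes. All but spo held under 10 counts in each hybrid library and passed the filter on low counts through the D. simulans libraries. The D. simulans allele of sro had 7.34 and 2.12 counts in hybrids, against 53.2 and 140 in D. simulans (log2 fold change -3.54, SE 0.53, adjusted p = 0.00201, edgeR). That of sad had 7.48 and 1.16 counts in hybrids, against 45 and 80 in D. simulans (-3.14, SE 0.59, adjusted p = 0.00504, edgeR). That of shd had 4 and 6 counts in hybrids, against 35.7 and 72.9 in D. simulans (-2.60, SE 0.44, adjusted p = 0.0032, edgeR). The calls of these 3 genes held when any one library was left out, although the values moved to -4.64 for sro and -5.01 for sad without hybrid replicate 1 and to -2.94 for sro and -2.38 for sad without hybrid replicate 2.

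dib and spo were less certain on this side. The D. simulans allele of dib had 4.93 and 0 counts in hybrids, against 16.6 and 46.2 in D. simulans, with a log2 fold change of -2.76 (SE 0.83, adjusted p = 0.0293, edgeR). The call was lost without hybrid replicate 2 (-1.82, adjusted p = 0.0936) and without D. simulans replicate 2 (-2.35, adjusted p = 0.123, edgeR), and without hybrid replicate 1 the only remaining hybrid library held no read. The D. simulans allele of spo kept the highest level of the 5, with 34 and 38 counts in hybrids, against 119 and 155 in D. simulans. Its log2 fold change of -1.17 (SE 0.27, adjusted p = 0.0108, edgeR) lay just past the threshold, and it missed it without hybrid replicate 1 (-1.06, adjusted p = 0.0622) or without D. simulans replicate 1 (-0.998, adjusted p = 0.0404, edgeR). For spo, 17.7% (exact 95% interval 7.15 to 32.1) and 7.61% (1.54 to 19.9) of the reads of both alleles in hybrid libraries were on the D. melanogaster allele, which is the minority in both. For sro the share of the D. melanogaster allele was 52.9% (26.6 to 78.7) and 77.7% (40.0 to 97.2) in hybrid replicates 1 and 2. For shd it was 69.2% (38.6 to 90.9) and 40% (12.2 to 73.8), and for sad 37.6% (15.2 to 72.3) and 83.4% (42.1 to 99.6). These intervals for sro, shd and sad all included an equal share, and the replicates of shd and of sad lay on opposite sides of it. For dib it was 0% in replicate 1, which rests on 4.93 counts (0 to 52.2), and replicate 2 had no count on either allele.

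Whether the alleles differed in their change was tested by an interaction term over the 1997 pairs with a unique D. simulans gene (edgeR). Each hybrid library entered with its alleles as separate columns and without a term for the library. The standard errors and p-values of this fit thus ignore that pairing. The fall of the D. melanogaster allele of spo exceeded that of its D. simulans allele by -2.26 on the log2 scale (SE 0.65), with a p of 0.00769 that did not pass after adjustment (adjusted p = 0.101, edgeR). No difference was found for sro (0.03, SE 0.64), sad (-0.26, SE 0.84), shd (0.20, SE 0.67) or dib (-4.14, SE 2.62), whose standard errors leave room for differences of a log2 unit or more in these genes. Over all pairs 4.31% passed this test, and none of the 5 members did.

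**Figure D2:**
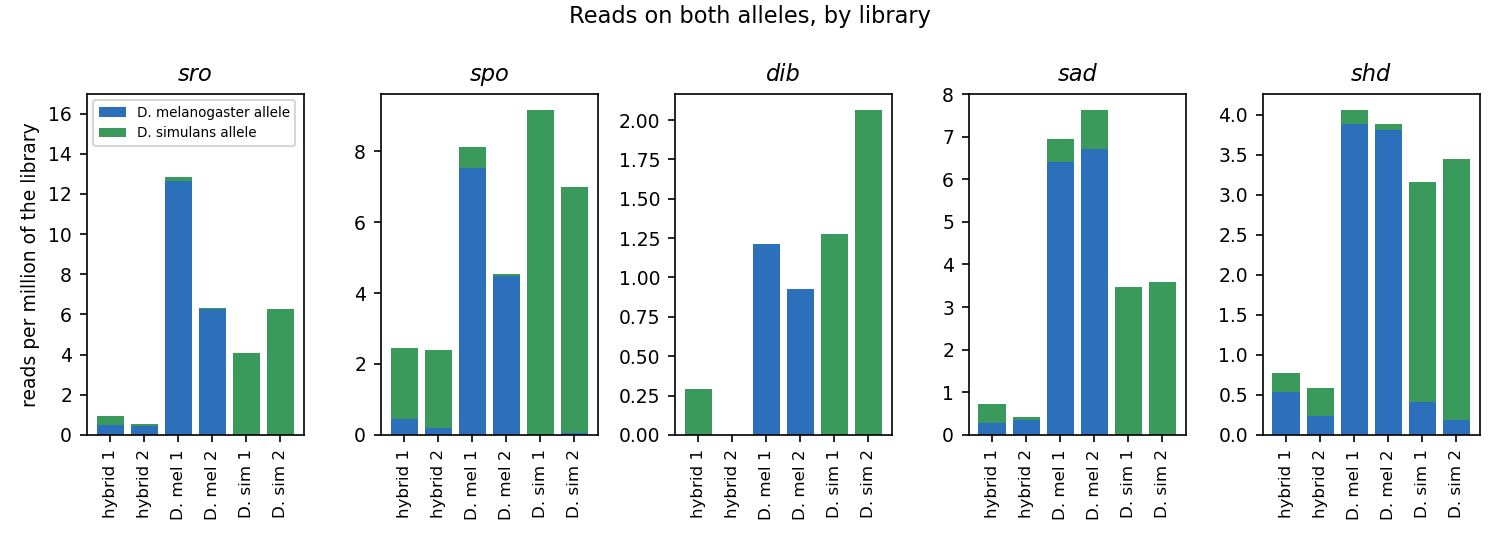
Whole-library CPM on the D. melanogaster allele (blue) and the D. simulans allele (green) of 5 synthesis genes in each of 6 libraries, each panel with its own axis. The stacked bars of both hybrid libraries are lower than those of all 4 parental libraries in every panel, and for spo they consist mainly of the D. simulans allele.

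With both alleles added and libraries scaled to their total counts over the genes of both species, these 5 genes were called lower in hybrids than in either parent. Of all pairs, 9.76% were called lower than in D. melanogaster and 9.46% lower than in D. simulans, with medians over all pairs of 0.15 and 0.14 on the log2 scale. In CPM of the whole library, spo had 2.46 and 2.41 in hybrids, against 8.10 and 4.54 in D. melanogaster and 9.17 and 6.98 in D. simulans. Its sum was thus 2.60-fold lower than in D. melanogaster (log2 fold change -1.40, SE 0.36, adjusted p = 0.0286, edgeR) and 3.32-fold lower than in D. simulans (-1.73, SE 0.26, adjusted p = 0.00176, edgeR). The other 4 genes had larger changes. Relative to D. melanogaster the log2 fold changes were -3.70 for sro, -3.68 for sad, -2.84 for dib and -2.54 for shd, with adjusted p between 0.00108 (sad) and 0.0487 (dib, edgeR). Relative to D. simulans they were -2.81 for sro, -2.64 for sad, -3.48 for dib and -2.27 for shd, with adjusted p between 0.0016 (sad) and 0.0106 (dib, edgeR). Both hybrid libraries were below all 4 parental libraries for 5 of 5 genes, which was the case in 19.2% of all pairs. In these sums a read given to the wrong species still counts for its gene.

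Genes that supply, transport, inactivate or regulate ecdysone were examined as 23 related genes, of which 18 were tested. 3 of them were called lower, 1 was called higher and 14 were not called, with a median log2 fold change of 0.06, against 10.3% of all tested genes called lower and 2.99% called higher. With libraries scaled by the reads of both species, 8 of the 18 related genes were called lower, against 43.9% of all tested genes under that scaling. Among the genes of transport and inactivation, Cyp18a1, a cytochrome P450 that breaks down ecdysteroids, had 52.8 and 40.7 counts in hybrids, against 1037 and 492 in D. melanogaster (log2 fold change -3.10, SE 0.30, adjusted p = 0.00123, edgeR). Atet, the ABC transporter known to load ecdysone into secretory vesicles of the prothoracic gland, had 83.6 and 100.3 counts in hybrids, against 1028 and 513 in D. melanogaster (-2.15, SE 0.25, adjusted p = 0.00219, edgeR). The change of Cyp18a1 lay within the range of the called synthesis genes, and that of Atet was smaller than any fitted change among them. The transporters Oatp74D (0.35, adjusted p = 0.319) and E23 (0.17, adjusted p = 0.546, edgeR) were not called.

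No gene of sterol supply or electron transfer was called. The sterol transport gene Npc1a had a log2 fold change of -0.48 (adjusted p = 0.06) and Npc2a one of -0.76 (adjusted p = 0.0561, edgeR). The electron donors of mitochondrial P450 enzymes, dare (0.10), Fdx1 (-0.51) and Fdx2 (-0.18), and the P450 reductase Cpr (0.54) had adjusted p between 0.0946 and 0.745 (edgeR). Among regulators, br, an ecdysone-responsive transcription factor, had 103 and 113 counts in hybrids, against 655 and 396 in D. melanogaster (-1.39, SE 0.20, adjusted p = 0.00532, edgeR). D. simulans libraries held 49.9 and 95.8 counts on this allele of br. The POU factor vvl, needed for synthesis gene expression in the larval gland, was the only one called higher, with 31.9 and 21.6 counts in hybrids, against 7.74 and 7.95 in D. melanogaster and 4 and 5.39 in D. simulans (2.60, SE 0.47, adjusted p = 0.0105, edgeR). The zinc finger gene mld (0.41), the nuclear receptor genes ftz-f1 (0.02) and Hr4 (-0.69), and tor (0.71), the receptor of the prothoracicotropic hormone, were not called. Npc1b, Cyp6t3, Eo, ouib and kni had too few counts to be tested.

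**Figure D3:**
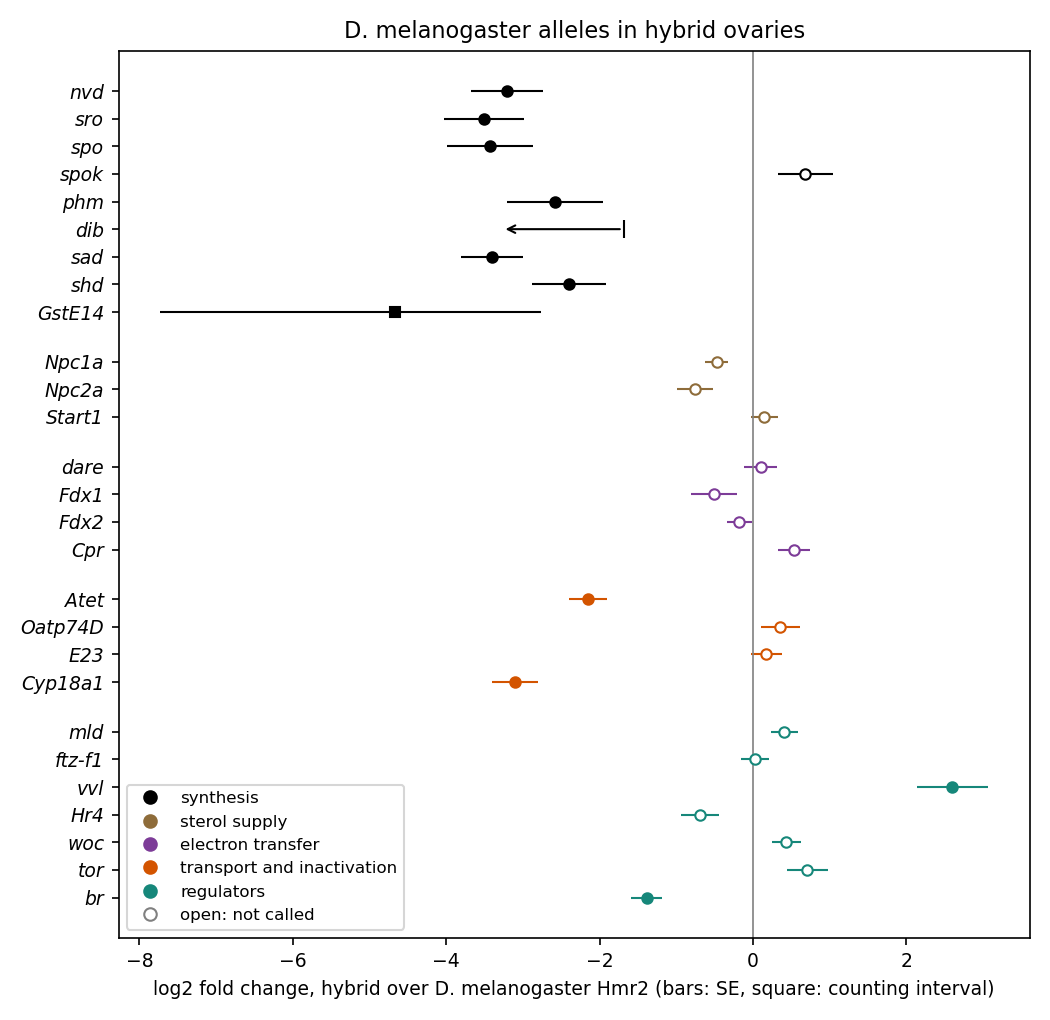
Log2 fold change of the D. melanogaster allele in hybrids over D. melanogaster Hmr2 for the 9 synthesis genes (black) and the 18 tested related genes (coloured by role), with bars for the standard error, filled symbols for called genes, a counting interval for GstE14 (square) and an arrow from the lower bound for dib. The synthesis genes other than spok lie at -2.40 or lower or, for dib, have a bound below 0, and among the related genes Cyp18a1, Atet and br lie at -3.10, -2.15 and -1.39.

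Markers of the cell types of the ovary moved as well. Among all tested genes, 10.3% were called lower and 2.99% higher. Of 7 follicle cell markers 6 were tested and 5 were called lower, with tj, the transcription factor of somatic gonad cells, at -2.89 (adjusted p = 0.000352, edgeR). Only Fas3 was not called, and it went the other way. It had 57.9 and 46.7 CPM in hybrids, against 45.8 and 38.4 CPM in D. melanogaster. The summed level of the follicle cell markers was 124 and 114 CPM in hybrids, against 299 and 270 CPM in D. melanogaster. All 10 eggshell and yolk genes of mid and late egg chambers were called lower, with 2971 and 3220 CPM in hybrids, against 15733 and 10531 CPM in D. melanogaster. These lists include genes of the cells known to make ecdysone. Of 8 germline markers, bam, orb, grk and aub were called lower, and the list summed to 3342 and 3359 CPM in hybrids, against 3935 and 4491 CPM in D. melanogaster. All 6 muscle genes were called higher, at 1514 and 1484 CPM in hybrids, against 551 and 368 CPM in D. melanogaster. Of the fat body markers Lsp2, Fbp1 and Fbp2 were at 3 counts or fewer in every library, and apolpp was not called.

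**Figure D4:**
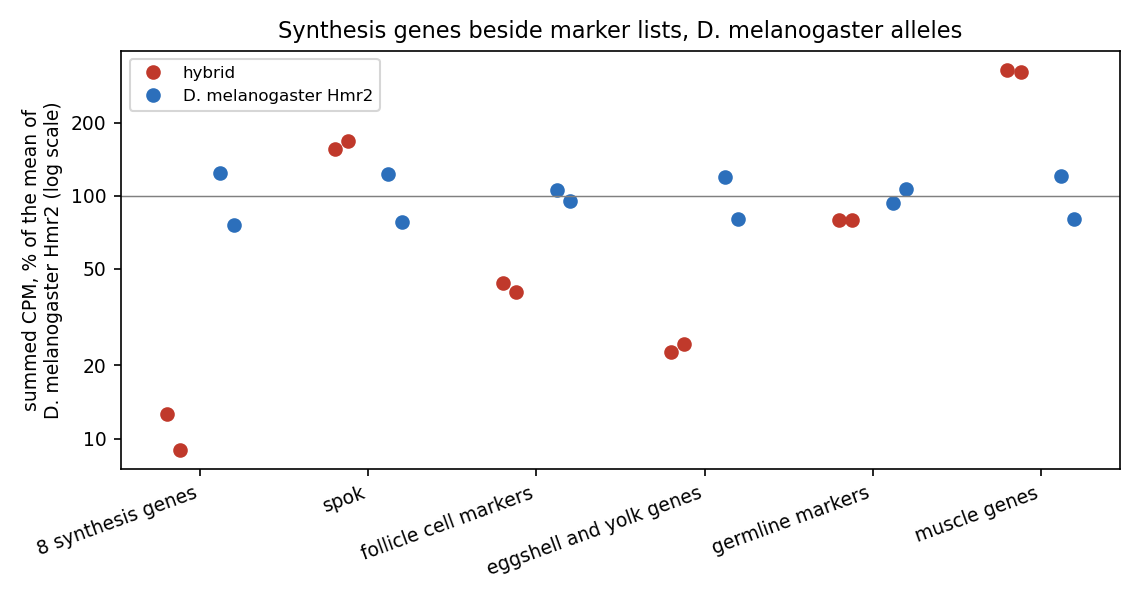
Summed CPM of the 8 synthesis genes other than spok, of spok and of 4 marker lists in each hybrid (red, left) and each D. melanogaster Hmr2 library (blue, right), in percent of the D. melanogaster mean on a log scale. The 8 synthesis genes together are at 10.8% of the D. melanogaster mean in hybrids, against 41.8% for follicle cell markers (27.5% without Fas3) and 23.6% for eggshell and yolk genes. With spok included, all 9 synthesis genes are at 21.3%. Fas3, which was higher in hybrids, was left out of the 27.5% after its values were seen.

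The 8 synthesis genes other than spok summed to 5.68 and 4.05 CPM in hybrids, against 55.8 and 34.1 CPM in D. melanogaster. Their hybrid mean was 10.8% of that of D. melanogaster, against 41.8% for the follicle cell markers, 23.6% for eggshell and yolk genes, 79.5% for germline markers and 326% for muscle genes. With spok, the member that was not called lower, all 9 genes were at 21.3%, close to the eggshell and yolk genes. Without Fas3, which alone among the tested follicle cell markers was not called and held a large part of their sum, the follicle cell list was at 27.5% (chosen after its values were seen), with 66.4 and 67.1 CPM in hybrids, against 254 and 232 CPM in D. melanogaster. In the germline list the 4 called markers were at 34.3% (orb) to 41.8% (aub) of D. melanogaster. The other 4 were at 89.4% (osk) to 119% (nos), and osk had the highest level of the list. Most follicle cell markers, all eggshell and yolk genes and 4 of 8 germline markers were thus lower along with the members. Muscle genes were higher. The part of cell composition in the members' lower counts was not tested.

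The genes whose profile over the 4 libraries came nearest to the median profile of the members were found by the Euclidean distance of centred log2(CPM + 0.5). They were Rdh1 (distance 0.103), CG5921 (0.147), the yolk protein gene Yp2 (0.169), Lime (0.176) and CG16710 (0.177). Their log2 fold changes were -2.57, -2.81, -2.46, -2.26 and -3.80 in that order, against a median of -3.40 for the members. The added 0.5 CPM shrinks the differences of genes with low counts, such as the members. The members themselves lay between 0.359 (GstE14) and 0.737 (phm) from their median profile, and spok lay at 2.94. All 5 genes were closer to the median profile than any member was. They were picked as the nearest of all other tested genes and the members were not, so this follows largely from the choice.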

How the data were processed

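Ovarian polyA RNA of hybrids, D. melanogaster Hmr2 and D. simulans w501 was sequenced by the authors in 100-base runs and assigned with kallisto 0.50.0 to RefSeq transcripts of both species in one set. The deposited table holds estimated counts, which the authors summed to protein-coding genes with tximport and which need not be whole, and TPM values computed by the authors over the transcripts of both species. The header of the D. melanogaster replicate 2 count column repeats a TPM name, and it was identified by its place among the count columns. A further 6 columns of transcript lengths without sample names were not used.

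Libraries held 12981002 to 22363396 estimated counts, and D. melanogaster genes took 45.1% and 47.7% of them in hybrids, 97.0% and 97.3% in D. melanogaster and 2.61% and 2.65% in D. simulans. Replicates of a group differed by more than sampling noise (chi-square per degree of freedom from 8.53 to 67.3).

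Counts were rounded and tested with edgeR 4.0.16 in R 4.3.3 (glmQLFit and glmQLFTest, two-sided) in the hybrid libraries and those of one parent, over the genes of that parent, after filterByExpr (minimum count 10) and with TMM factors, so that fold changes express a gene against the rest of its own genome. p-values were adjusted by Benjamini-Hochberg over all tested genes. Standard errors were derived from the log2 fold change and its quasi-F statistic (absolute value over square root). CPM values use the same scaling. A group with both libraries at 3 counts or fewer was at the floor; where it held 0 counts the fold is a bound against 3 counts per library, and where it held 1 to 3 counts the ratio is given with an exact interval. Floors and intervals cover counting error only. The D. simulans alleles were found by matching the values of the orthologue table of the study, held here in part, to the deposited table (relative tolerance 1e-05), which gave 1997 pairs with a unique D. simulans gene. The interaction fit and the sums of both alleles were added after seeing the data. Positions and symbols come from the RefSeq table of the Release 6 assembly, and exon overlaps from the Ensembl annotation of that assembly. The edgeR steps were tested on simulated data.

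The 9 members, the related genes and the marker lists were chosen with earlier results of these data known. Named were all members, the related genes that were called with some that were not, and the 5 genes nearest to the members' median profile. Alternatives were DESeq2 1.42.0, limma 3.58.1 on log2(TPM + 0.5), whole-library scaling, other filters and fold thresholds, a replicate block and leaving out each library. For limma, TPM values were first rescaled to the same sum over the D. melanogaster genes of each library. No sequences are shown, and the planned search for promoter motifs was not run.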

Additional observations from a re-analysis of the deposited data

How the results depend on the processing

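Of 108 alternative values of the members' log2 fold changes on the D. melanogaster alleles, 104 kept their direction and their side of the threshold, and 1 reversed. That was spok, at -0.22 with whole-library scaling, where the median of all D. melanogaster genes was -0.92. The setting without a minimum fold change reused the main fit, so its value for each member could not differ. Testing against a 1.5-fold change reused the same log2 fold changes, so only its calls could differ. Of 45 values of the 5 D. simulans alleles, 41 did so. The members called lower numbered 7 when tested for more than a 1.5-fold change (phm was lost, adjusted p = 0.0616, edgeR), 7 to 8 with 1 library left out, and 8 in all other settings. With limma on log2 TPM 1 member, spok, was called higher and the median of the members was -1.94. For the related genes, whole-library scaling called 8 lower, and limma called 2 higher; with 1 library left out 3 to 4 were called lower and 1 to 2 higher. The D. simulans alleles called lower numbered 4 to 5 with 1 library left out.

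Over all D. melanogaster genes, 841 were called lower and 245 higher. Whole-library scaling gave 3604 and 79, limma 431 and 906, and testing for more than a 1.5-fold change 518 and 122; without a minimum fold change 558 were higher. With 1 library left out, 578 to 1174 were lower and 173 to 508 higher. Medians of the log2 fold change over all D. melanogaster genes were -0.92 with whole-library scaling and 0.46 with limma, against 0.00 in the main fit. The cause of the differing counts was not tested. A lone sample left in a group was assumed to vary like the other group. With a replicate block, 901 were lower and 298 higher, 8 members were lower and spok was at 0.72; no call of a member or D. simulans allele changed. Deviations of libraries with the same number were uncorrelated (-0.000257 in D. melanogaster and 0.0397 in D. simulans genes), so the numbers were not taken as pairs.

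With 2 libraries per group, and under 10 counts in each hybrid library for 7 of the 9 genes, depth limits the precision of the fold changes. Allowing 3 counts over both hybrid libraries raised the bound for dib to 6.43-fold.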

Other observations

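Of the related genes, D. simulans alleles were identified for dare, Fdx2, Cpr, tor and br. The D. simulans allele of br had 5.34 and 8.94 CPM in hybrids, against 32.1 and 43.4 CPM in D. simulans, and was called lower (log2 fold change -2.42, SE 0.25, adjusted p = 0.000413, edgeR). Those of dare (-0.11), Fdx2 (0.03), Cpr (0.07) and tor (0.37) were not called, with adjusted p between 0.0814 and 0.802 (edgeR).

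Some reads of the parental libraries fell on the allele of the other species. In D. melanogaster libraries the D. simulans allele of sad received 10.2 and 12.6 counts, so that 92.4% and 87.9% of the reads of this gene were on its own allele (exact 95% intervals 86.8 to 96.4 and 79.6 to 93.2). The D. simulans allele of sad itself had 7.48 and 1.16 counts in hybrids. In D. simulans libraries 13.01% and 5.39% of the reads of shd were on the D. melanogaster allele.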
